A study of Homo sapiens with 24 samples.

Results

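The genes described here encode the subunits of the respiratory chain and ATP synthase that the nucleus, and not the mitochondrial genome, supplies. They were chosen by gene symbol: every gene in both expression tables whose symbol begins with NDUFA, NDUFB, NDUFC, NDUFS or NDUFV and a digit, with UQCR, with COX and a digit from 4 to 8, or with ATP5, together with SDHA, SDHB, SDHC, SDHD and CYC1. Of 242 symbols that match, 149 were left out as pseudogenes and 5 for a hyphen, which leaves 88 members of 58884 genes. By complex, 36 belong to complex I, 4 to complex II, 10 to complex III, 19 to complex IV and 19 to complex V. NDUFA4 and its paralogue NDUFA4L2 were counted with complex IV, where the NDUFA4 protein is found.

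The respiratory chain passes electrons from NADH (through complex I) and succinate (through complex II) by way of coenzyme Q, complex III and cytochrome c to oxygen at complex IV, and complex V uses the resulting proton gradient to make ATP. All complexes but complex II are mosaics: a small set of core proteins is read from mitochondrial DNA, the rest is imported from the cytosol. Several nuclear-encoded subunits have paralogues that replace each other by tissue, as in muscle or testis, or at low oxygen, as NDUFA4L2 does.

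RNA was measured in 10 libraries of HEK293T, a human embryonic kidney cell line, and its SETD2 knockout derivative. SETD2 is the methyltransferase that trimethylates lysine 36 of histone H3. The study asked how transcription changes when SETD2 accumulates, and compared a full-length construct with a shorter one that reaches a higher protein level. The first table holds 2 wild type (WT) and 2 SETD2 knockout (KO) libraries, and the second holds 2 KO libraries, 2 of KO cells rescued with full-length SETD2 (SETD2 FL) and 2 of KO cells rescued with residues 1404 to 2564 (SETD2 C, called N3 in the labels). WT and KO libraries are labelled untreated, while both rescue constructs were introduced by transient transfection, under a CMV promoter and with a GFP or Halo tag. Transfection and construct therefore cannot be told apart in a comparison of either rescue with KO. The labels do not say whether replicates came from separate cultures, so p-values measure only the spread between these libraries. A lower level in bulk RNA cannot be told apart from fewer cells that express a gene.

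The values are TPM, an abundance per unit of transcript length in which every library has the same sum. Depth cannot be read from them. TPM was scaled between the libraries of each table by factors of 0.936 to 1.14, and levels below are scaled TPM unless stated otherwise. Fold changes are differences of log2(scaled TPM + 0.5), given ± the standard error, and come out too small for genes of low TPM. They were tested with limma across all genes with Benjamini-Hochberg adjustment. "Rose" and "fell" below mean an adjusted p of at most 0.05. In the first table SETD2 RNA was at 14.4 and 14.2 in WT and at 15.3 and 15.7 in the libraries labelled KO, so the transcript does not check that label. In the second table it was at 12.4 and 12.7 in KO, 459 and 424 in SETD2 FL and 1251 and 1183 in SETD2 C. Markers of HEK293T were present, with a deposited TPM of VIM from 444 to 926 and of NEFM from 111 to 341, whereas PTPRC, CD3E, HBB and CDH5, markers of blood and endothelial cells, did not pass 0.08 in any library, and ALB, DCN and GFAP did not pass 0.43. PAX2, a kidney gene, was low at 0.99 to 2.21. The HEK293T markers were not constant: with SETD2 C 4 of the 6 rose against KO, namely KRT8 (log2 fold change of 1.61), NEFL (1.22), NEFM (1.2) and KRT18 (0.21), with adjusted p from 4.86e-06 to 0.019 (limma), while VIM (0.06) and PAX2 (0.14) were not called.

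The promoter sequences of members that moved are shown first, since the nuclear genes of the chain share binding motifs for the activators NRF1, GABPA (an ETS factor) and YY1. The RefSeq promoter table (GRCh38.p14) held 70 of the 88 members, each with 250 bases before and 50 after a transcript start. The letters searched, on both strands, were GCGCA and GCGC with any base between them for NRF1, CCGGAAG for ETS factors, AANATGGCG for YY1, and ACGTG or GCGTG for the core of the hypoxia response element. NRF1 letters were found in 17 of 70 members (24.3%), against 6.98% of all 27305 genes with a promoter in that table and 9.67% of its protein-coding genes. ETS letters were found in 21 members (30%, against 12.2% and 16.5%), and YY1 letters in 17 (24.3%, against 3.85% and 5.59%). The short hypoxia core was in 46 members (65.7%) but also in 52.4% of all genes and 61.9% of protein-coding genes. Of the 30 members with a promoter that fell with SETD2 C and the 34 that were not called, the shares were 23.3% and 26.5% for NRF1, 33.3% and 32.4% for ETS factors, 30% and 20.6% for YY1 and 80% and 55.9% for the hypoxia core, with no test made. A match describes letters in a window and is not a binding site, and no binding data were used. Windows of 30 bases around YY1 letters, in capitals, are shown for 3 members that fell with SETD2 C and for NDUFV2, which rose and carries them on the opposite strand. Counted from the transcript start, the letters begin at -180 in NDUFS8. In the others they begin after the start, at 17 in NDUFS7, 8 in NDUFS6 and 41 in NDUFV2.
NDUFS8 (chr11:68030491-68030520, plus strand): tccccaaaccAACATGGCGgccccctacaa
NDUFS7 (chr19:1383914-1383943, plus strand): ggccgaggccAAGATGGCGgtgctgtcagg
NDUFS6 (chr5:1801405-1801434, plus strand): ccagcggcgcAAAATGGCGgcggcgatgac
NDUFV2 (chr18:9102719-9102748, plus strand): gggaaggtgaacagtgtggccCGCCATGTT

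NRF1 letters are shown in the same way for 3 members that fell, from complexes III, I and V, and for SDHD of complex II, which was not called. UQCR11 and NDUFA11 carry them on the opposite strand, so that the capitals are their reverse complement. The ETS letters of SDHB, the only member called in KO against WT, follow.
UQCR11 (chr19:1605472-1605501, minus strand): ccctccccgcGCGCGTGCGCgccgcggccg
NDUFA11 (chr19:5903869-5903898, minus strand): ccggtccccgGCGCGTGCGCgcgatccatg
ATP5ME (chr4:674476-674505, minus strand): cgcagcaactGCGCAGGCGCagccgatgat
SDHD (chr11:112086753-112086782, plus strand): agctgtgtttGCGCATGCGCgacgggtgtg
SDHB (chr1:17054142-17054171, minus strand): cacccgggaaaCCGGAAGccgcctcccact

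Members were among the more abundant transcripts of these cells. In the second table the filter on low TPM was passed by 83 of 88, and the median of their mean levels was 254, with quartiles of 126 and 505. The highest was COX6A1 at 1898, followed by ATP5MF (1165), UQCRH (1141) and COX7C (1092). A deposited TPM above 10 in every library was found for 80 members. The exceptions are paralogues known from other tissues or from low oxygen. COX7A1 (the muscle and heart form) and COX7B2 were listed at 0 in all 10 libraries. COX4I2, COX6A2 and ATP5MGL had means of at most 0.0485 in either table, and these 5 were not tested. COX6B2 and COX8C, both known from testis, and NDUFA4L2 stayed at or below 5.51 in every library, far below their ubiquitous partners.

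In each library of the second table the members together held 2.91% to 3.09% of deposited TPM. That share was 2.91% and 3.01% in KO, 3.09% and 2.99% in SETD2 FL, and 3.02% and 2.94% in SETD2 C. By this measure the 3 groups overlapped. Of the scaled sums, those of KO (30089 and 31432) and SETD2 FL (32339 and 30096) overlapped. Those of SETD2 C were 28393 and 27506, which put both SETD2 C libraries below every other. Whether the sum was lower with SETD2 C thus depended on the scaling.

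With SETD2 C, 32 of 83 tested members fell and 4 rose against KO. The rises include COX8C, which passed the filter on low TPM only through the SETD2 C libraries, and 3 remain without it. Of all 15933 genes tested, 15.1% were lower and 21.1% higher, so falls were more frequent among members (38.6%) and rises less frequent (4.82%). Most members are abundant, however, and among the 2640 genes with a mean level of at least 50, a level chosen after the data were seen, 33.9% were lower. Of the 77 members above that level 39.0% were lower, which is near the background, whereas 1.3% were higher, against 13.4% of all genes above it. The median log2 fold change was -0.10 over the members, 0.05 over all genes and -0.09 over all genes with a level of at least 50. A fall reached 2-fold in no member. The direction depended on the scaling. Without scaling between libraries 16 members rose and 14 fell, and the median of members was 0.04 where that of all genes was 0.18. After TPM was rescaled without SETD2 and the mitochondrially encoded genes 9 rose and 20 fell, and after quantile normalization 6 rose and 25 fell. Falls made up 16.9% of members and 7.01% of all genes without scaling, 24.1% and 9.24% after rescaling, and 30.1% and 17.5% after quantile normalization. Shares of all genes that rose, and shares for genes with a level of at least 50, are not given for these settings. The rises there thus have no background beside them. By complex, the medians without scaling were 0.03 for complex I, 0.10 for complex II, -0.05 for complex III, 0.07 for complex IV and 0.04 for complex V, so that all but that of complex III changed sign. The calls moved with them: without scaling 7 members fell and 7 rose in complex I, 2 and 1 in complex III, 1 and 4 in complex IV, and 4 and 3 in complex V, and in complex II 1 rose. After rescaling 11 fell and 3 rose in complex I, 2 and 0 in complex III, 3 and 4 in complex IV, and 4 and 2 in complex V. The counts by complex below are those as scaled here, to be read with these and with the shares of all genes. Relative to the median of all genes the members stood at -0.15 as scaled here, -0.14 without scaling, -0.14 after rescaling and -0.02 after quantile normalization. Under all 4 scalings 14 members fell (ATP5F1D, ATP5MC1, ATP5MC2, ATP5ME, COX5B, CYC1, NDUFA7, NDUFA10, NDUFA11, NDUFB7, NDUFS6, NDUFS7, NDUFS8 and UQCR11) and 2 rose (NDUFA4L2 and NDUFV2).

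**Figure D1:**
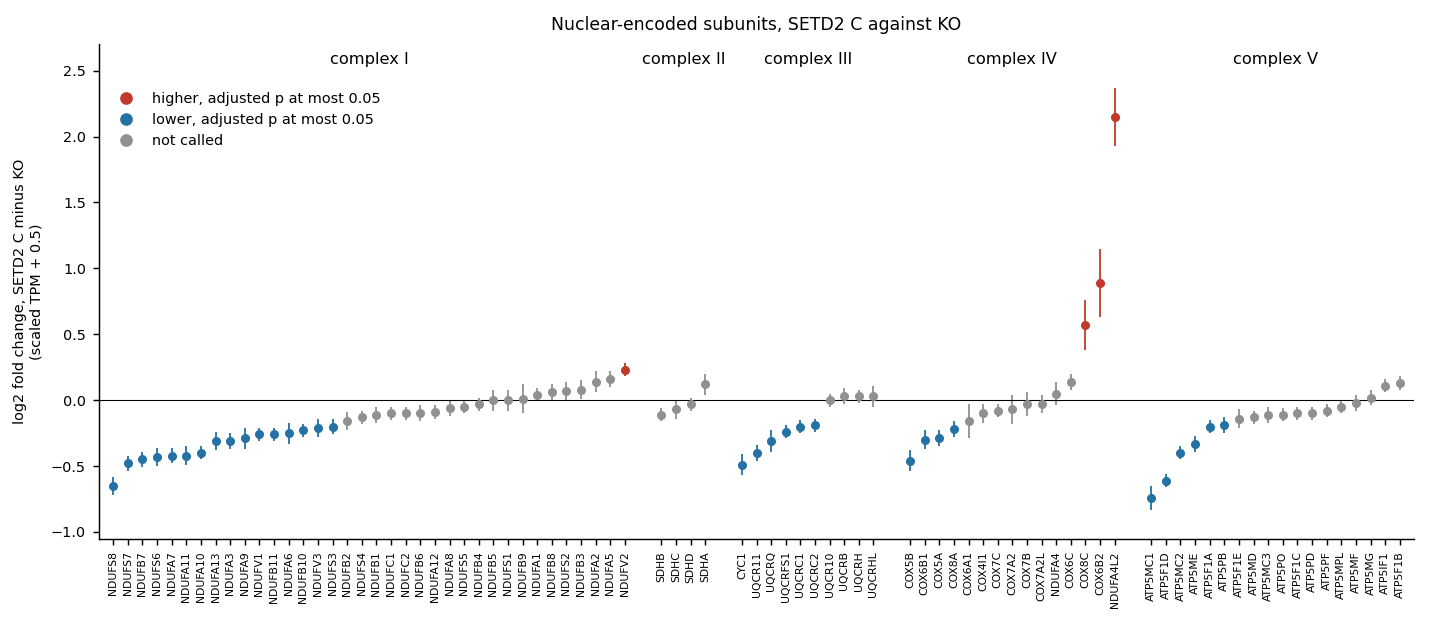
The log2 fold change of each of the 83 tested members, SETD2 C minus KO in the second table (2 libraries each), is plotted by complex on the y axis, with bars for the standard error. Falls in blue spread over complexes I, III, IV and V and none exceeds 0.74, complex II has no called member, and NDUFA4L2 stands alone at 2.15.

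Complex IV held the largest change. NDUFA4L2 (ENSG00000185633, chr12:57234903-57240715, minus strand, 4 exons in GENCODE 44) is a paralogue of the complex IV subunit NDUFA4 and is known to be induced at low oxygen. It was at 1.16 and 0.522 in KO, 1.24 and 0.995 in SETD2 FL and 5.51 and 5.06 in SETD2 C. Both SETD2 C libraries lay above every other library of the table, at a level still low next to that of other members. The log2 fold change was 2.15 ± 0.22 against KO (adjusted p = 0.000554, limma) and 1.84 ± 0.22 against SETD2 FL (adjusted p = 0.000873, limma). It was the only member to rise by at least 2-fold, in either comparison, where 3.75% of all genes did so against KO and 3.36% against SETD2 FL. NDUFA4 itself was at 140 and 143 in KO and 145 and 148 with SETD2 C (log2 fold change of 0.05, adjusted p = 0.724 from limma). The ratio of the pair, which does not depend on scaling, was 0.365% and 0.826% in KO, 0.733% and 0.737% in SETD2 FL, and 3.43% and 3.79% in SETD2 C.

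The 250 bases before the NDUFA4L2 transcript start (RefSeq symbol COXFA4L2, chr12:57240763-57241012, minus strand) held 2 copies of GCGTG, in capitals, and no ACGTG. The shares given above are for ACGTG or GCGTG, in windows that also hold 50 bases after the start. No share of promoters with GCGTG alone is given.
NDUFA4L2: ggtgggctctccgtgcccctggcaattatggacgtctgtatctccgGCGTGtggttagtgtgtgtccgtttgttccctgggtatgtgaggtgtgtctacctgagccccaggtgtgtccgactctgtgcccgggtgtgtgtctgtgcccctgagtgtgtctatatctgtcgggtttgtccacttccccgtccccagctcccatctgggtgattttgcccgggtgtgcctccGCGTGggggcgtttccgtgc

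A pair of low paralogues rose beside it. COX6B2, the testis form of COX6B, was at 1.3 and 1.75 in KO, 1.66 and 1.47 in SETD2 FL, and 2.27 and 4.52 in SETD2 C. The groups did not overlap, but the SETD2 C libraries differed widely, and without the second of them the log2 fold change went from 0.89 (adjusted p = 0.0328) to 0.46 (adjusted p = 0.157, both from limma). COX8C, the testis form of COX8, was at 0.352 and 0.481 in KO, 0.324 and 0.422 in SETD2 FL, and 0.884 and 0.833 in SETD2 C. It passed the filter only through the SETD2 C libraries, so its rise (log2 fold change of 0.57, adjusted p = 0.0444 from limma) was favoured by the filter, and the call was lost when any library of that comparison was left out. The ubiquitous forms moved the other way: COX6B1 fell by 0.30 and COX8A by 0.22 on the log2 scale (adjusted p = 0.0133 and 0.0307, limma), though neither call held under all 4 scalings.

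Among the other complex IV subunits COX5B and COX5A fell. COX5B was at 418 and 463 in KO and at 323 and 314 with SETD2 C (log2 fold change -0.46 ± 0.08, adjusted p = 0.00374, limma). COX5A was at 870 and 930 in KO and 726 and 750 with SETD2 C, a log2 fold change of -0.29. The most abundant members, COX6A1, COX7C and COX4I1, were not called. Their levels with SETD2 C were 1723 and 1583, 1050 and 1047, and 877 and 869, and the COX4I1 values lay below the 899 and 968 of KO with an adjusted p of 0.319 from limma. In all, 4 of the 15 complex IV members tested fell, with a median of -0.07, and 3 rose, or 2 without COX8C. The falls made up 26.7%, against 15.1% of all genes and 33.9% of those with a level of at least 50. Of all genes 21.1% were higher.

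In complex I, 16 of 36 members fell (44.4%, against 15.1% of all genes and 33.9% of those with a level of at least 50) and 1 rose, with a median of -0.12. Without scaling the falls and rises were equal in number, at 7. The largest falls were those of NDUFS8 and NDUFS7, which carry the iron-sulphur clusters nearest to the coenzyme Q site. NDUFS8 (chr11:68030617-68036644, plus strand, 7 exons) was at 241 and 261 in KO, 230 and 222 in SETD2 FL, and 170 and 151 in SETD2 C. The SETD2 C libraries lay below both other groups, with a log2 fold change of -0.65 ± 0.07 against KO (adjusted p = 0.000600, limma). NDUFS7 was at 120 and 127 in KO, 117 and 115 in SETD2 FL, and 91.4 and 85.4 in SETD2 C (log2 fold change of -0.48, adjusted p = 0.000928 from limma).

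The other subunits of the electron path did not move alike. NDUFV1, which binds NADH, fell by 0.26 on the log2 scale (adjusted p = 0.00632 from limma). NDUFV2, its partner in the NADH-oxidising module (chr18:9102630-9134345, plus strand, 8 exons), was at 106 and 106 in KO, 104 and 105 in SETD2 FL, and 124 and 125 in SETD2 C. That was the single rise in complex I (log2 fold change 0.23 ± 0.05, adjusted p = 0.00773, limma). NDUFS1, the largest subunit of the complex, was at 50.2 and 57.5 in KO and 56.2 and 51.2 with SETD2 C, groups that overlapped. The ratio of NDUFS8 to NDUFV2 within a library was 2.28 and 2.46 in KO, 2.21 and 2.11 in SETD2 FL, and 1.37 and 1.21 in SETD2 C.

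Among the accessory subunits of complex I, NDUFB7 fell by 0.45, NDUFS6 by 0.43, NDUFA7 and NDUFA11 by 0.42 and NDUFA10 by 0.40 on the log2 scale. NDUFS6 was at 117 and 121 in KO and 86.1 and 89.2 with SETD2 C, and NDUFA10 at 94.5 and 91.5 in KO and 69.5 and 71.3 with SETD2 C. NDUFA5 had the highest value after NDUFV2 (log2 fold change of 0.16, adjusted p = 0.0754 from limma), and was not called.

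Complex II, whose 4 proteins all come from the nucleus, had no called member. The flavoprotein SDHA was at 120 and 111 in KO and 126 and 127 with SETD2 C (log2 fold change of 0.12, adjusted p = 0.248 from limma). The iron-sulphur protein SDHB was at 194 and 199 in KO and 188 and 177 with SETD2 C (log2 fold change of -0.11, adjusted p = 0.138 from limma). The membrane anchors SDHC and SDHD had log2 fold changes of -0.07 and -0.03. The 4 genes are too few to set against the other complexes.

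The median of complex III was -0.20, and 6 of its 10 members fell as scaled here. That is 60.0%, against 15.1% of all genes and 33.9% of those with a level of at least 50. Without scaling or after rescaling only 2 members fell. Both nuclear-encoded electron carriers of the complex were among the 6. CYC1, cytochrome c1, was at 273 and 305 in KO, 273 and 259 in SETD2 FL, and 217 and 194 in SETD2 C (log2 fold change -0.49 ± 0.08, adjusted p = 0.00252, limma). UQCRFS1, the Rieske iron-sulphur protein, was at 42.6 and 43.1 in KO and 35.7 and 36.9 with SETD2 C (log2 fold change of -0.24, adjusted p = 0.0132 from limma). UQCR11 fell by 0.40 on the log2 scale, UQCRQ by 0.31, and the core proteins UQCRC1 and UQCRC2 by 0.20 and 0.19. UQCRB and UQCRH stood at 0.03. UQCRHL is an intronless copy of UQCRH, at 1.56% to 1.92% of its level in every library, and its estimate is uncertain because the near-identical copies may share reads.

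In complex V, 6 of 18 tested members fell and none rose against KO as scaled here, with a median of -0.11. The falls made up 33.3%, against 15.1% of all genes and 33.9% of those with a level of at least 50. ATP5MC1, ATP5MC2 and ATP5MC3 encode the same mature c subunit of the membrane rotor behind different import sequences. ATP5MC1 (chr17:48892765-48895871, plus strand, 5 exons) was at 422 and 444 in KO, 462 and 427 in SETD2 FL, and 286 and 235 in SETD2 C. This was the largest fall of any member (log2 fold change -0.74 ± 0.09, adjusted p = 0.00106, limma). ATP5MC2 was at 723 and 742 in KO and 558 and 550 with SETD2 C (log2 fold change of -0.40, adjusted p = 0.000858 from limma). ATP5MC3 was at 506 and 545 in KO and 491 and 482 with SETD2 C (log2 fold change of -0.11, adjusted p = 0.189 from limma). Within a library the ATP5MC1 share of the 3 transcripts was 25.6% in both KO libraries, 27.3% and 26.3% in SETD2 FL, and 21.4% and 18.5% in SETD2 C. The ATP5MC3 share was 30.6% and 31.5% in KO and 36.8% and 38.1% with SETD2 C.

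The catalytic head of ATP synthase also divided. ATP5F1D, the delta subunit of the central stalk (chr19:1241746-1244825, plus strand, 4 exons), was at 176 and 182 in KO, 176 and 175 in SETD2 FL, and 120 and 114 in SETD2 C (log2 fold change -0.61 ± 0.05, adjusted p = 0.000220, limma). The alpha subunit ATP5F1A was at 375 and 399 in KO and 337 and 338 with SETD2 C, a log2 fold change of -0.20. The catalytic beta subunit ATP5F1B was at 727 and 751 in KO, 726 and 718 in SETD2 FL, and 835 and 787 in SETD2 C (log2 fold change of 0.13, adjusted p = 0.0769 against KO, and 0.17, adjusted p = 0.0356 against SETD2 FL, both from limma). The ratio of ATP5F1D to ATP5F1B in one library was 0.242 and 0.243 in KO, again 0.242 and 0.243 in SETD2 FL, and 0.144 and 0.145 in SETD2 C. ATP5IF1, the inhibitor of the reverse reaction, was not called (log2 fold change of 0.11, adjusted p = 0.125 from limma), and its ratio to ATP5F1B lay between 0.722 and 0.784 in all 6 libraries.

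**Figure D2:**
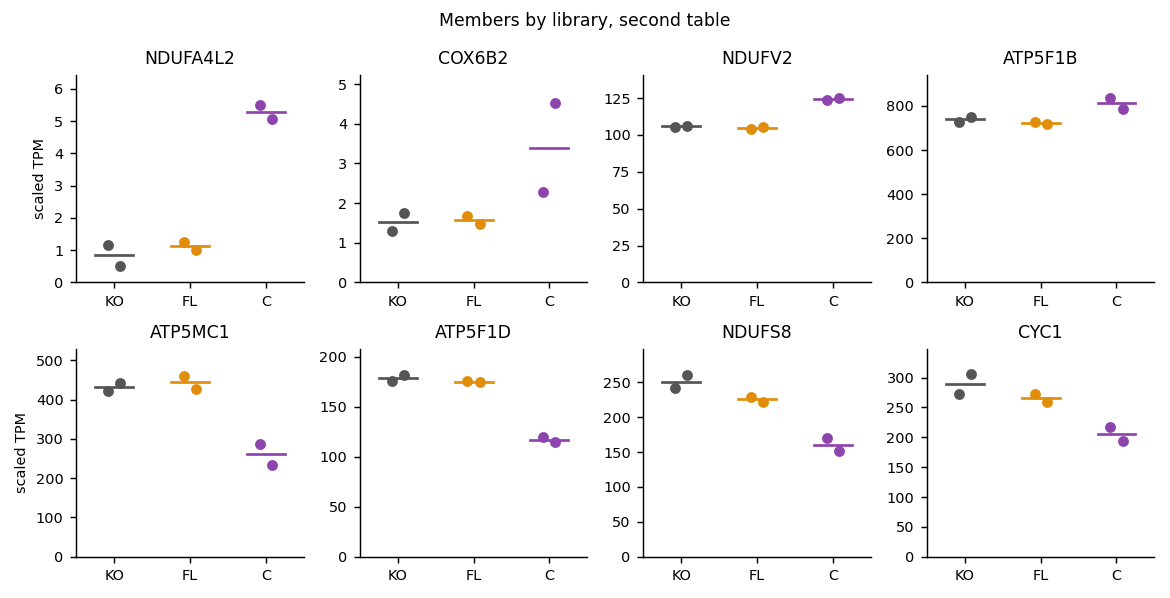
Scaled TPM of 8 members is shown per library of the second table (points) with the group mean (lines) for KO, SETD2 FL (FL) and SETD2 C (C). The SETD2 C libraries lie above the others for NDUFA4L2, COX6B2, NDUFV2 and ATP5F1B and below them for ATP5MC1, ATP5F1D, NDUFS8 and CYC1.

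SETD2 C was also compared with SETD2 FL, where both groups were transfected. This comparison uses the same SETD2 C libraries as the last, so that it is not independent of it. The SETD2 transcript differed between these groups (log2 fold change of 1.46, adjusted p = 7.06e-06 from limma), and the part of that difference in the results was not tested. The paper, in contrast, reports no significant difference in mRNA between both constructs in its RNA-seq data. The constructs also differ in length, and the effect of this on TPM was not tested. Of 83 members 31 fell and 5 rose (37.3% and 6.02%), with COX8C again among the rises, against 16.8% and 21.4% of all genes. Among genes with a level of at least 50, 33.2% were lower and 14.9% higher, and among the 77 members above it 37.7% and 2.6%. Without scaling 13 members rose and 18 fell (21.7%, against 9.46% of all genes). The share of all genes that rose is not given for that setting. By complex the falls numbered 18 of 36 in complex I, 0 of 4 in complex II, 4 of 10 in complex III, 5 of 15 in complex IV and 4 of 18 in complex V. Without scaling they numbered 8 in complex I, 0 in complex II, 4 in complex III, 3 in complex IV and 3 in complex V.

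The log2 fold changes against SETD2 FL were -0.78 for ATP5MC1, -0.58 for ATP5F1D, -0.49 for NDUFS8, -0.39 for NDUFS7, -0.37 for CYC1, -0.44 for COX5B and -0.30 for ATP5MC2, with adjusted p from 0.000240 to 0.00717 (limma). NDUFV2 rose by 0.25. COX6B2 rose by 0.85, but by 0.42 with the call lost (adjusted p = 0.176, limma) without SETD2 C replicate 2, and the call was lost under 7 of 15 alternatives. The accessory subunits NDUFB2, NDUFB6 and NDUFC2 fell in this comparison (log2 fold changes of -0.33, -0.31 and -0.26). NDUFC2 was at 424 and 395 in SETD2 FL and 350 and 335 in SETD2 C, and at 363 and 373 in KO, between them. COX6A1 was at 2477 and 1902 in SETD2 FL and 1723 and 1583 in SETD2 C, and it fell (log2 fold change of -0.39, adjusted p = 0.0481 from limma), a call lost under 10 of 15 alternatives. Without SETD2 FL replicate 3 the value was -0.20 (adjusted p = 0.244) and without SETD2 FL replicate 4 it was -0.58 (adjusted p = 0.0144, both from limma).

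The number of calls rests on few libraries. Against KO, 17 members fell without the KO library numbered 4 and 19 without SETD2 C replicate 2, and 2 rose without either KO library or without SETD2 C replicate 2. Against SETD2 FL, 19 fell without SETD2 FL replicate 3 and 15 without SETD2 C replicate 2, and the rises went from 5 to 2 or 3 when any of the 4 libraries was left out. Among the members followed through the alternatives, ATP5F1A, ATP5PB, COX5A, COX6B1, COX6B2, COX8A, COX8C, UQCRC1 and UQCRFS1 lost their call against KO when at least 1 library was left out, and against SETD2 FL so did ATP5F1B, COX6A1, COX6B1, COX6B2, COX8A, COX8C, CYC1 and NDUFV1. In both comparisons NDUFA4L2, ATP5MC1, ATP5MC2, ATP5F1D, NDUFS7, NDUFS8, NDUFV2 and COX5B kept their direction with each library left out. They also kept an adjusted p of at most 0.05 (limma) in every fit with 2 libraries a group in which they were tested. A limit of 2-fold, which no fall reached, was met by NDUFA4L2 alone.

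SETD2 FL against KO gave no called member. All genes gave 28 rises and 5 falls (0.176% and 0.0314%), and the median log2 fold change was 0.01 for the members and 0.01 for all genes. At an unadjusted p under 0.05, 6 of 83 members differed (limma), against 15.9% of all genes. The 3 highest values were those of NDUFB9 (0.32), NDUFA4L2 (0.31) and COX6A1 (0.24), and the 3 lowest those of COX7B (-0.17), NDUFS8 (-0.15) and UQCRC1 (-0.14), with adjusted p from 0.232 to 0.533 (limma). NDUFB9 was at 347 and 379 in KO and 514 and 400 with SETD2 FL. The groups did not overlap, but the distance between the SETD2 FL libraries was greater than that between the groups' nearest libraries. The complex medians lay between -0.03 and 0.03.

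In KO against WT, tested in the first table for 82 members, 1 rose and none fell, against 1.32% and 3.17% of all 14746 genes. At an unadjusted p under 0.05, 9 of 82 differed, against 24.9% of all genes. The member called was SDHB (ENSG00000117118, chr1:17018664-17054032, minus strand, 8 exons), the iron-sulphur subunit of complex II. It was at 132 and 126 in WT and 170 and 166 in KO (log2 fold change 0.38 ± 0.07, adjusted p = 0.0369, limma). Its ratio to SDHA, which scaling does not touch, was 1.17 and 1.03 in WT and 1.48 and 1.38 in KO. The call was lost without WT replicate 1 (adjusted p = 0.0584), KO replicate 1 (adjusted p = 0.187) or KO replicate 2 (adjusted p = 0.211, all from limma), with log2 fold changes of 0.36 to 0.42. The other complex II subunits were not called, with log2 fold changes of 0.18 for SDHD, 0.00 for SDHA and -0.01 for SDHC, and the complex II assembly factor SDHAF4 fell from a mean of 13.6 to 8.71 (log2 fold change of -0.62, adjusted p = 0.0249 from limma).

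All 14 complex IV members tested in the first table had log2 fold changes below 0 as scaled here, but 10 of 14 without scaling and 12 of 14 after either other scaling. The median was -0.23 and none was called, and without WT replicate 1 the median was -0.03. The highest members after SDHB were NDUFA5 (0.19) and ATP5PB (0.18). The lowest were NDUFA4L2 (-0.70, adjusted p = 0.0859), COX6A1 (-0.39, adjusted p = 0.174) and, in complex I, NDUFB9 (-0.33, adjusted p = 0.199, all from limma). NDUFA4L2 was at 1.02 and 1.02 in WT and 0.530 and 0.347 in KO, so its groups did not overlap. COX6A1 was at 1543 and 1136 in WT and 1038 and 989 in KO, with WT replicate 1 far above the rest. That library had a deposited TPM share of mitochondrially encoded protein genes of 22.6%, against 11.8% to 13.8% in the other 3 libraries of the table. Without it COX6A1 stood at -0.17 (adjusted p = 0.326), NDUFB9 at -0.11 (adjusted p = 0.472, both from limma) and NDUFA4L2 still at -0.70, and no member fell. Without WT replicate 2, which leaves that library as the only WT, the complex IV median was -0.38 and 10 members fell.

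**Figure D3:**
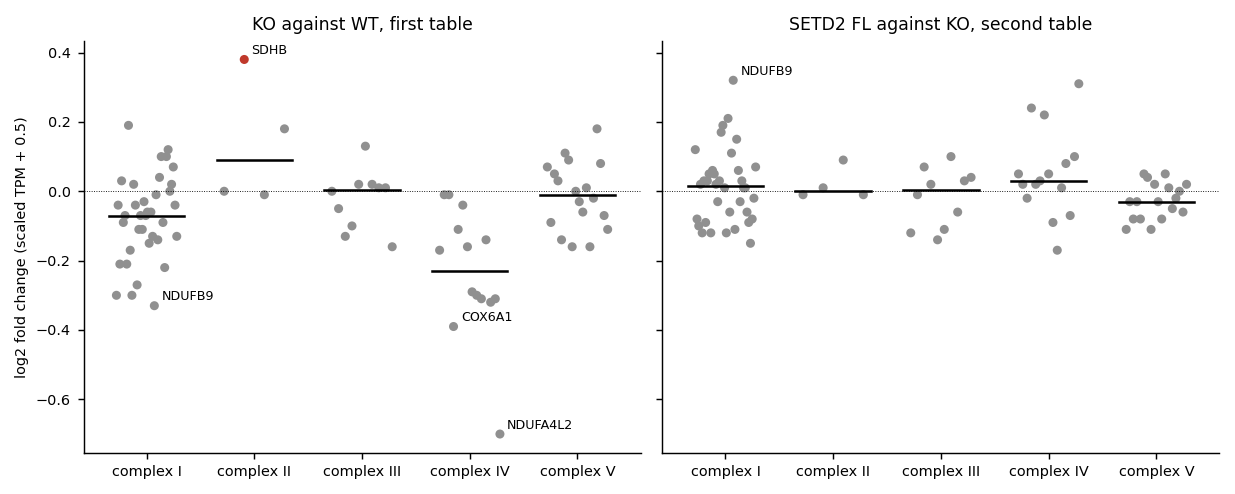
Log2 fold changes of the members by complex are plotted for KO minus WT in the first table (82 members) and SETD2 FL minus KO in the second (83 members), with a line at each complex median. SDHB, in red, is the only called member, complex IV has its median at -0.23 in KO against WT (-0.03 without WT replicate 1), and the medians of SETD2 FL against KO lie close to 0.

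The subunits that mitochondrial DNA encodes did not keep step with their nuclear partners. Against KO 11 of 13 fell with SETD2 C as scaled here, where 15.1% of all genes were lower. Their median log2 fold change was -1.37, and that of the nuclear-encoded members -0.10. The falls numbered 9 without scaling, 9 after rescaling and 8 after quantile normalization, with medians of -1.22, -1.27 and -1.32. For complex V the summed TPM of MT-ATP6 and MT-ATP8 over that of the nuclear members was 2.28 and 1.88 in KO, 3.34 and 2.45 in SETD2 FL, and 0.435 and 0.499 in SETD2 C. For complex IV the same ratio was 3.65 and 2.99 in KO, 4.92 and 3.86 in SETD2 FL, and 1.33 and 1.52 in SETD2 C. In complex III it was 0.470 and 0.376 in KO and 0.137 and 0.147 with SETD2 C, and in complex I 1.99 and 1.76 in KO and 1.01 and 1.25 with SETD2 C. The SETD2 C libraries were lowest in every complex, and no other group overlapped with them. These ratios do not depend on the scaling. Mitochondrial mRNA has short tails, and the libraries were made after ribosomal depletion and poly(A) enrichment. Whether these steps captured the same share of mitochondrial mRNA in every library was not tested.

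**Figure D4:**
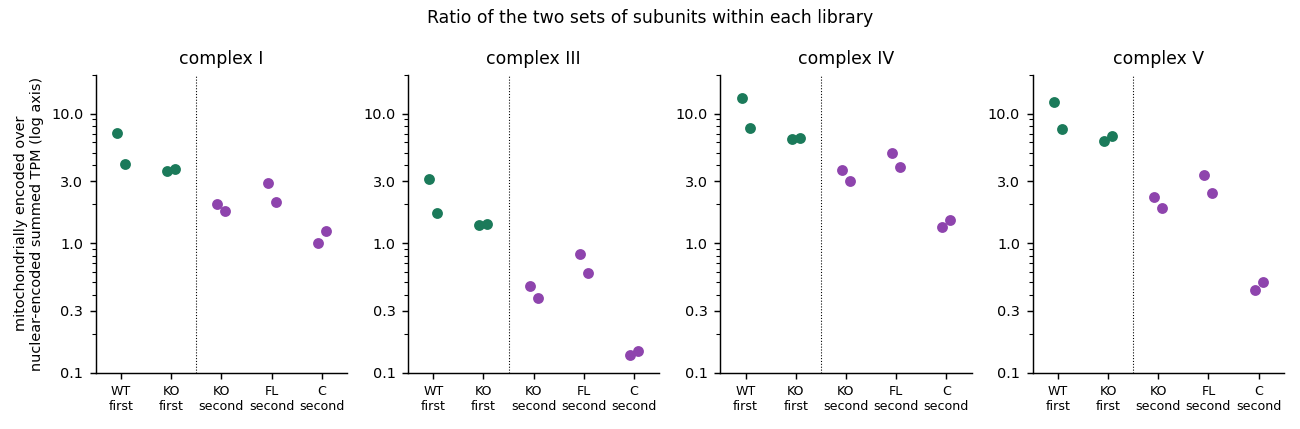
The ratio of summed TPM, mitochondrially encoded over nuclear-encoded subunits, is plotted on a log axis for each library and the 4 complexes that have both, with the first table left of the dotted line and the second right of it. The tables were processed separately and are not compared. In each panel both SETD2 C libraries lie below the KO and SETD2 FL libraries of the second table.

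The members that fell were richer in GC. The median GC content of the reference transcript was 55.0% for the 32 that fell with SETD2 C against KO and 45.2% for the 47 not called. Across the 83 members, which share the same 4 libraries, the Spearman correlation of GC content with log2 fold change was -0.45 and the Pearson correlation, which the low paralogues weigh on, was -0.15. Over all 15933 genes the Spearman value was -0.12, and over the genes with a level of at least 50 it was -0.36. This is not particular to the members. After adjustment of the values for transcript length and GC content 46 members fell and 3 rose against KO, and 54 fell and 4 rose against SETD2 FL. So adjusted, 55.4% of members and 15.1% of all genes were lower than in KO, and 65.1% and 16.7% lower than in SETD2 FL. Shares for genes with a level of at least 50 are not given for this setting, so these differences are not matched for level.

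Chromosome 19, rich in GC, holds 12 members, of which 11 were tested: NDUFA3, NDUFA7, NDUFA11, NDUFA13, NDUFB7, NDUFS7, UQCR11, UQCRFS1, COX6B1, COX6B2 and ATP5F1D. As scaled here 10 of them fell with SETD2 C against KO and COX6B2 rose, with a median of -0.40. On other chromosomes 22 of 72 members fell, with a median of -0.10. Of the chromosome 19 calls, those of NDUFA7, NDUFA11, NDUFB7, NDUFS7, UQCR11 and ATP5F1D held under all 4 scalings. Those of NDUFA3, NDUFA13, UQCRFS1, COX6B1 and COX6B2 did not. Of all 1119 genes tested on chromosome 19, 22.0% were lower, and of the 202 with a level of at least 50 it was 53.5%. Against SETD2 FL 9 of the 11 fell as scaled here, and of these NDUFB7, NDUFS7, UQCR11, UQCRFS1 and ATP5F1D fell under all 4 scalings. Of all genes on chromosome 19, 22.2% were lower in that comparison, and 46.5% of those with a level of at least 50. The chromosome was singled out after the values were seen.

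**Figure D5:**
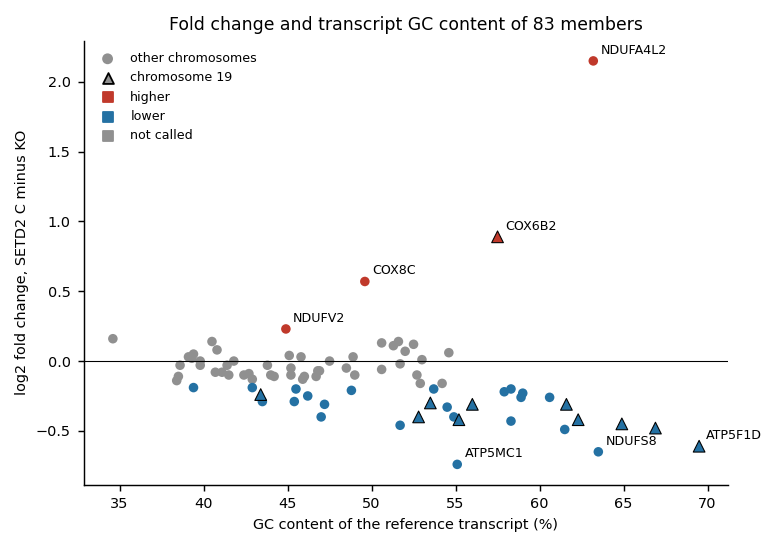
The log2 fold change of SETD2 C minus KO of the 83 tested members is plotted against the GC content of the reference transcript in percent, with triangles for chromosome 19. The falls in blue gather at higher GC content, and NDUFA4L2, at 63.2% GC and 2.15, is the clearest exception.

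Genes that build, feed or regulate the chain were counted as scaled here, where 15.1% of all genes were lower with SETD2 C than in KO and 21.1% higher. Of the 17 complex I assembly factors 5 fell with SETD2 C against KO and 1 rose, with a median of -0.15: NDUFAF3 fell by 0.57 and NDUFAF5 rose by 0.37. Without scaling 3 fell and 4 rose, so that the balance turned. Of 6 complex III factors 3 fell and 1 rose, with UQCC2 down from a mean of 198 to 144, and without scaling 1 fell and 1 rose. Of 25 complex IV factors 6 fell and 5 rose, with a median of -0.09, but 3 fell and 6 rose without scaling, with a median of 0.05. They held opposite extremes: SCO2, a copper chaperone, fell by 0.74 (adjusted p = 0.000428 from limma), and COX20, a chaperone of the mitochondrially encoded subunit MT-CO2, was at 10.4 and 9.55 in KO, 13.8 and 13.8 in SETD2 FL, and 28.9 and 33.0 in SETD2 C (log2 fold change of 1.59, adjusted p = 2.4e-05 from limma). Of 4 complex II factors 1 fell (0 without scaling), and of 3 complex V factors 1 rose (2 without scaling).

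Of 9 electron carriers and donors to coenzyme Q only CYCS, cytochrome c, was called, and it fell by 0.21 on the log2 scale (adjusted p = 0.0120 from limma), a call that none of the other 3 scalings gave. Without scaling none of the 9 fell and 2 rose. Among 12 regulators of respiratory chain genes 4 fell and 1 rose, with a median of -0.02, but 4 fell and 5 rose without scaling (median 0.12) and 4 fell and 4 rose after rescaling (median 0.07). PPARGC1B and PPRC1, coactivators of the PGC-1 family, fell by 0.79 and 0.58, ESRRA, a nuclear receptor, by 0.44, and MYC by 0.76, while YY1 rose from a mean of 49.2 to 59.0 (log2 fold change of 0.26, adjusted p = 0.00791 from limma). PPARGC1A, of the same family, was low, at 0.942 and 0.815 in KO and 1.42 and 1.24 with SETD2 C. It was not called as scaled here or after quantile normalization, but rose without scaling and after rescaling. Of 9 low-oxygen genes tested, NDUFA4L2 included, 6 rose against KO, with a median of 1.2. LONP1, ISCU and HIGD1A were not called as scaled here, though HIGD1A rose under each of the other 3 scalings. LONP1 was at 68.2 and 65.6 in KO and 62.0 and 60.0 with SETD2 C. ISCU was at 69.5 and 67.4 in KO and 62.5 and 63.8 with SETD2 C. PDK1, which limits the entry of pyruvate into the citric acid cycle, rose from a mean of 19.1 to 59.5, and BNIP3, a mitophagy receptor, from 65.4 to 185. CYCS, PPARGC1A, LONP1, ISCU and HIGD1A apart, the genes named here from these lists were called under all 4 scalings. In SETD2 FL against KO no gene of these lists was called.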

How the data were processed

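Per the labels and the study's methods, the authors demultiplexed reads with bcl2fastq 2.18, aligned them with STAR 2.6.1c to hg38 with Ensembl gene models, estimated TPM with RSEM 1.3.0 and deposited TPM per gene in 2 tables without normalization between libraries. TPM keeps no depth, so no counting error is given. ChIP-seq samples were not analysed here.

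Each library was scaled by its median ratio, over protein-coding genes and lncRNAs that no library of the table had under a TPM of 1, to their geometric means. The test was limma 3.58.1 (R 4.3.3; a linear fit per table, contrasts, and moderated variances with an intensity trend) on log2(scaled TPM + 0.5). It covered genes of those types that reached a TPM of 0.5 in 2 or more libraries, which left 15933 for the second table and 14746 for the first. Calls were made at an adjusted p of at most 0.05. The procedure was tested on simulated data. GENCODE 44 (GRCh38) gave the type, position, transcript length and GC content of genes. Identifiers matched it for 58472 genes and symbols for a further 31, and 381 had no match. With 2 libraries against 2, an exact permutation test of a single gene could not reach 0.05 and was not used.

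The members and lists were chosen with earlier results of these data known. Named were, per complex, the 2 highest and 2 lowest log2 fold changes of SETD2 C against KO, every member called at 2-fold or more, paralogue pairs, catalytic subunits, and the 3 highest and 3 lowest members of the other comparisons with KO. Members named beyond this rule, such as the accessory subunits of complex I, were chosen after their values were seen.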

Additional observations from a re-analysis of the deposited data

How the results depend on the processing

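For SETD2 C against KO, 32 members fell and 4 rose. The falls numbered 14 without scaling, 20 after TPM was rescaled without mitochondrially encoded genes and SETD2, 20 with eBayes without trend, 46 after adjustment for transcript length and GC content, and 0 at 2-fold or more. They ranged from 17 to 26 with each library left out. The rises numbered 16 without scaling, 9 after rescaling, 2 where only genes that reached a TPM of 1 throughout were tested, 2 with all gene types and 1 at 2-fold or more, and 2 to 3 with each library left out. For SETD2 C against SETD2 FL, 31 members fell and 5 rose. The falls numbered 18 without scaling, 54 after adjustment for length and GC content and 0 at 2-fold or more, and 15 to 30 with each library left out. The rises numbered 13 without scaling, 3 where every gene with any TPM was tested, 3 under the stricter filter, 3 with eBayes without trend, 1 at 2-fold or more, and 2 to 3 with each library left out. For KO against WT, 1 member rose and 0 fell. The rise was lost (0 rises) with no filter, all gene types, eBayes without trend and a 2-fold limit, and numbered 0 to 1 with each library left out. The falls numbered 1 after quantile normalization and 1 after adjustment for length and GC content, and 0 to 10 with each library left out. SETD2 FL against KO gave 0 rises and 0 falls under all 16 alternatives. Shares of all genes that rose are not given for these alternatives, and the cause of these differences was not tested. No called value of a named member changed sign under any alternative run. Pseudocounts of 0.1 and 1 and a fit of only the 4 libraries compared moved no count by more than 1.5 times. Over the named members and all alternatives, 2166 values kept their side of the threshold, 112 calls were lost and 39 were gained. Of the complex medians 63 moved by more than the spread between replicates and 237 did not.

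Only WT and KO of the first table share replicate numbers. Samples of the same number had deviations from their group means that correlated at 0.147 across 14746 genes, and with only 2 pairs the numbers are not shown to pair the samples. With the replicate block 1 member rose and 3 fell.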
